A study of Homo sapiens with 9 samples.

Results

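RNA from TLX-overexpressing MDA-MB-231 cells that received an siRNA against TLX was compared with RNA from the same overexpressing cells that received a control siRNA, across all genes of the deposited expression table. MDA-MB-231 is an established human breast cancer line that lacks estrogen receptor, progesterone receptor and ERBB2 amplification and has a mesenchymal shape. The comparison uses 6 of the 9 libraries of the study, taken by the group name in their column headers. The TLX+siTLX group (overexpressing cells, TLX siRNA) holds libraries S7 to S9 and the TLX+siCTL group (overexpressing cells, control siRNA) holds S4 to S6. The remaining group, CTL+siCTL (control cells, control siRNA, S1 to S3), entered the statistical fit through its spread and its part in each gene's mean level. That mean over the 9 libraries also decided which genes were counted and named. Otherwise the group is quoted for reference. In all groups RNA was taken 48 h after transfection, and cells had been seeded 24 h before it. The titles of the CTL+siCTL samples also carry the word PC3, the name of a prostate line, although the cell line stated for them is MDA-MB-231. The sources used here do not say how TLX was overexpressed, whether the overexpressing cells are a clone or a pool, or what letters the siRNAs have. There was 1 siRNA label against TLX, so no independent siRNA could be set beside it.

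TLX, encoded by NR2E1, is an orphan nuclear receptor best known from neural stem cells, where it keeps the cells dividing. It binds DNA as a monomer at a short sequence around AAGTCA and mostly represses its targets with corepressors such as atrophin 1, LSD1 and histone deacetylases. An siRNA is a short double-stranded RNA, 1 strand of which is loaded into an Argonaute protein. The loaded strand cuts RNAs that pair with it along its whole length, and it can lower other RNAs whose 3′ untranslated region (3′ UTR) pairs with the bases near its 5′ end, as a microRNA does. MDA-MB-231 cells carry a mutant p53 and an active RAS pathway.

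The deposited values are log2 CPM, read counts scaled to the size of the library and put on a log2 scale, and effective library sizes were 73.75 to 91.72 M reads. Within a group, libraries correlated at 0.9918 or more across genes. The lowest value was that of S7 with S9, and the typical deviation of a gene from its group mean was larger in S7 (SD 0.131) and S9 (0.141) than in S8 (0.110) or in S1 to S6 (0.0997 to 0.115). Mesenchymal breast line genes (VIM, CD44, EGFR, FOSL1, MSN, CAV1) were measured, meaning that their log2 CPM averaged at least -1 over the 9 libraries, while SPARC was not. ESR1, PGR and FOXA1 of luminal breast cells were under that level, while ERBB2 (log2 fold change 0.02, not called) and GATA3, a luminal transcription factor that rose by 0.93 ± 0.13, were measured. Also under it were KLK2, KLK3 and HOXB13 of prostate cells and PTPRC, CD3E, VWF and CDH5 of immune and endothelial cells. The labels do not call the replicates separate cultures. All p-values below therefore measure only how far these samples spread, and that spread may be technical.

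NR2E1 was lower after the TLX siRNA and stayed above its level in control cells. NR2E1 (ENSG00000112333, GRCh38, chr6:108166058-108188809, plus strand) was at a log2 CPM of 0.28, -0.84 and 0.23 in S4 to S6 and at -2.61, -3.40 and -1.77 in S7 to S9, against -4.59, -4.28 and -4.50 in S1 to S3. The 3 groups did not overlap, and S9 kept the most NR2E1 RNA of the siRNA libraries. The log2 fold change of TLX+siTLX over TLX+siCTL was -2.48 ± 0.47 (standard error, SE; limma adjusted p = 0.00494), which leaves 0.179 of the level. It ranged from -2.90 without S9 to -2.08 without S8. The authors' deposited table gives a signed fold change of -6.21, which is a plain ratio and not on the log2 scale. NR2E1 had few reads even in the overexpressing cells, and on a log2(CPM + 1) scale, which weighs low counts less, the change was -0.74 and still called. In bulk RNA, fewer cells of a type and less RNA per cell cannot be told apart, here and for every gene below.

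Of 27548 rows, 3507 rose (12.7%) and 3011 fell (10.9%) in TLX+siTLX at a limma adjusted p under 0.05. Among the 14434 measured rows, 3242 rose (22.5%), 2866 fell (19.9%) and 8326 were not called, and the 3 and 3 values did not overlap in 55.6%. These 2 shares, 22.5% and 19.9%, are the background against which each gene group below is read. Most changes were small. Of the measured rows 1292 rose and 505 fell by at least 1.5-fold, 526 rose and 106 fell by at least 2-fold, and 55 rose and 6 fell by at least 4-fold, so the large changes were mainly rises. The median log2 fold change of all measured rows was 0.0036. The balance of the calls moved with the scaling. Rises were 53.8% of the calls as deposited, 48.0% with library medians set equal and 45.8% after quantile normalization, which shifted the median log2 fold change of rows averaging a log2 CPM of at least 1 from -0.003 to -0.03 and -0.05.

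**Figure D1:**
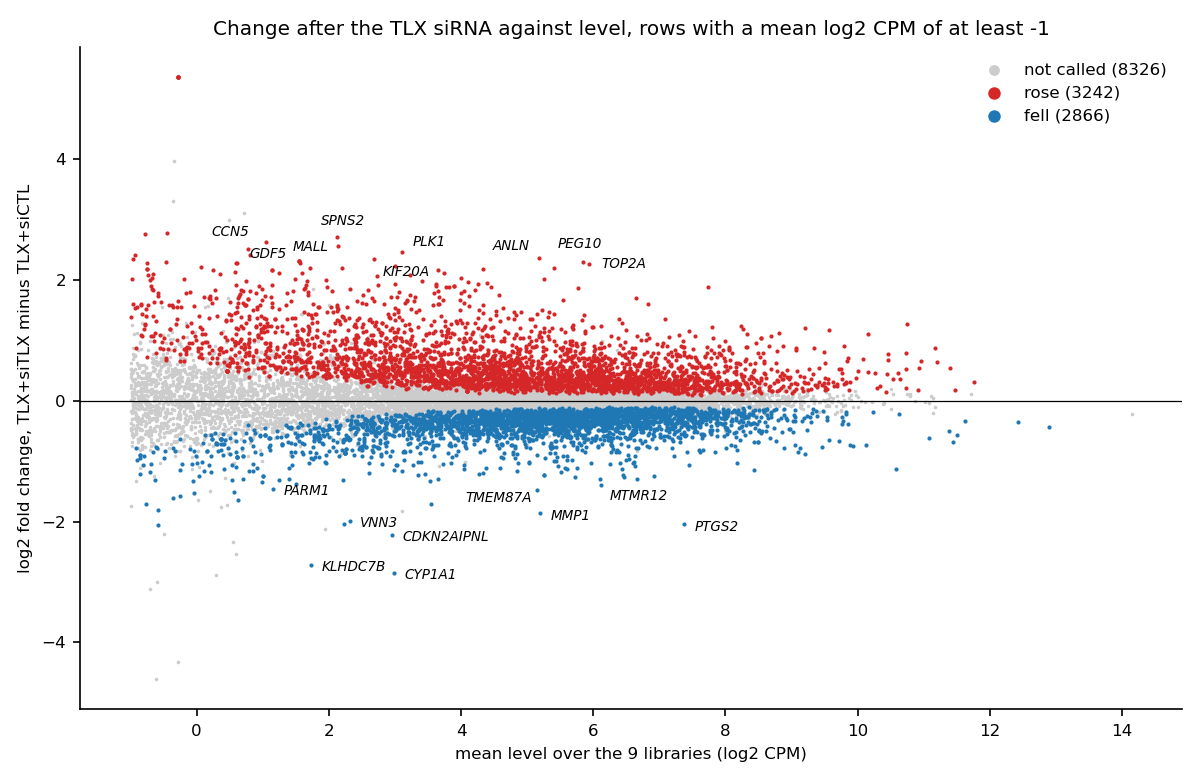
Each point is a row whose log2 CPM averaged at least -1, with its mean level over 9 libraries on the horizontal axis (log2 CPM) and its log2 fold change, TLX+siTLX minus TLX+siCTL, on the vertical axis; red points rose (3242), blue points fell (2866) and grey points were not called (8326). The largest rises reach further from 0 than the largest falls over most of the range, and the labelled genes were taken by the naming rule for large changes.

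Among the genes with the largest and the steadiest rises by the naming rule were SPNS2, CCN5, MALL, PEG10 and PLAAT4. SPNS2, an exporter of the lipid mediator sphingosine-1-phosphate (GRCh38, chr17:4498838-4539035, plus strand), was at a log2 CPM of 0.93, 1.14 and 0.86 in S4 to S6 and at 3.51, 3.60 and 3.94 in S7 to S9. It rose by 2.71 ± 0.14 on the log2 scale (limma adjusted p = 6.15e-06), and the siRNA libraries also lay above the control cells at 1.56, 1.81 and 1.81. CCN5, a secreted matricellular protein, was at 0.21, 0.20 and -0.07 against 2.53, 2.70 and 2.98 (2.62 ± 0.16), and MALL, a membrane raft protein, at 1.13, 1.10 and 1.32 against 3.55, 3.72 and 3.96 (2.55 ± 0.13). In each of these the 3 siRNA libraries lay close together and far above the others. PEG10, a gene derived from a retrotransposon, rose by 2.29 ± 0.08 from 4.88, 4.61 and 4.88 to 7.17, 7.01 and 7.06. PLAAT4, a retinoid-inducible phospholipase, had the steadiest difference relative to its spread together with COL4A1. Its level was 3.89, 3.82 and 3.91 in S4 to S6 and 5.4, 5.41 and 5.43 in S7 to S9 (log2 fold change 1.54 ± 0.05, limma adjusted p = 2.68e-06).

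**Figure D2:**
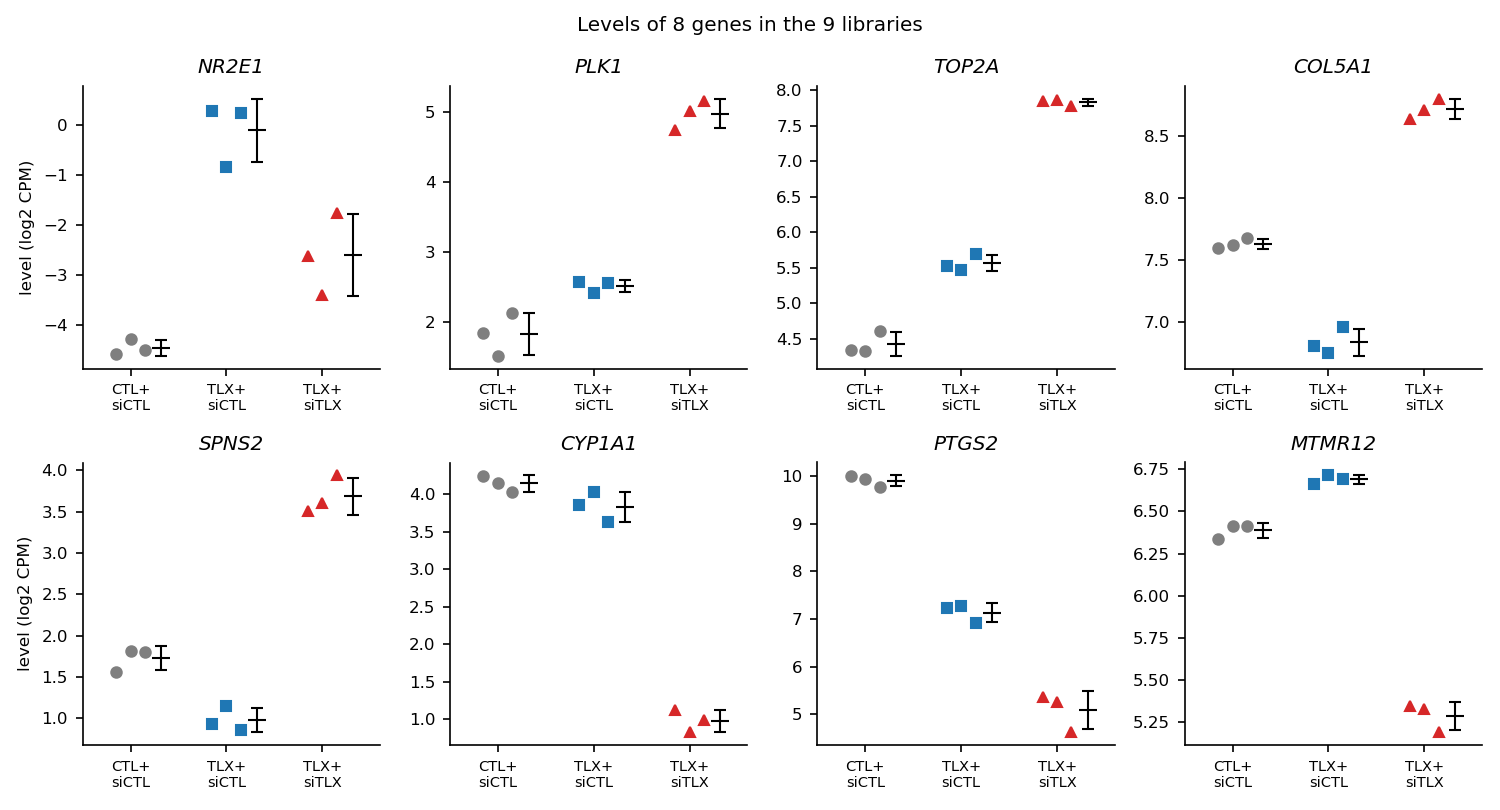
Level in log2 CPM of 8 genes in every library, with CTL+siCTL as grey circles, TLX+siCTL as blue squares and TLX+siTLX as red triangles; black bars are the group mean ± SD (n = 3), and the vertical scale differs between panels. In each panel the 3 TLX+siTLX libraries lie apart from the 3 TLX+siCTL libraries, above them for PLK1, TOP2A, COL5A1 and SPNS2 and below them for NR2E1, CYP1A1, PTGS2 and MTMR12.

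Genes of mitosis formed the group with the largest rises. Mitosis needs kinases and cyclins that start it, kinesin motors that build the spindle, kinetochores that hold chromosomes to it, a checkpoint that waits for them, and a ring that divides the cell. Of 12 measured mitotic kinesins 12 rose, with a median log2 fold change of 1.62. Of 17 further genes of spindle assembly and cytokinesis 17 rose (median 1.60), and of 22 kinases, cyclins and phosphatases of G2 and M phase 20 rose and 0 fell (median 1.03). The kinase PLK1 (chr16:23677656-23690367, plus strand), which drives spindle assembly and mitotic exit, was at a log2 CPM of 2.57, 2.42 and 2.56 in S4 to S6 and at 4.75, 5.02 and 5.16 in S7 to S9 (2.46 ± 0.16, limma adjusted p = 1.61e-05). The motor KIF20A, which works in the midzone of the spindle, was at 2.24, 2.16 and 2.33 against 4.48, 4.49 and 4.79 (2.34 ± 0.09). ANLN, which scaffolds the contractile ring, was at 5.03, 5.0 and 4.88 against 7.42, 7.38 and 7.19 (2.36 ± 0.09). The siRNA libraries were the highest of the 9 for all of these, and TLX+siCTL lay between them and the control cells, where PLK1 was at 1.85, 1.52 and 2.13 and ANLN at 3.16, 3.13 and 3.43.

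Kinases, cyclins and regulators of entry into mitosis rose together. CDK1, the kinase that starts mitosis, went from a log2 CPM of 3.67, 3.52 and 3.70 to 5.27, 5.21 and 5.24 (1.61 ± 0.11), and its partner CCNB2 from 2.76, 2.71 and 2.89 to 4.07, 4.09 and 4.34 (1.38 ± 0.09). No library of the 2 groups overlapped in either gene. The log2 fold change was 1.99 ± 0.16 for the centrosome kinase NEK2, 1.91 ± 0.13 for the CDK1-activating phosphatase CDC25C and 1.83 ± 0.15 for AURKB, the kinase that corrects faulty attachments. It was smaller for the cyclins CCNA2 (1.11 ± 0.08) and CCNB1 (0.92 ± 0.09). The transcription factors MYBL2 (1.80 ± 0.08) and FOXM1 (1.33 ± 0.06), which bind promoters of mitotic genes, rose as well. Among spindle proteins DLGAP5 rose by 2.16 ± 0.15, HMMR by 2.14 ± 0.20, SPAG5 by 1.60 ± 0.06, KIF4A by 1.71 ± 0.06 and TPX2 by 1.41 ± 0.05.

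Of 47 kinetochore and checkpoint genes 43 rose and 2 fell (median 0.96). At the inner kinetochore, the layer on centromeric chromatin, 19 of 20 rose. HJURP, the chaperone that deposits the centromeric histone, rose by 2.22 ± 0.14 from a log2 CPM of 2.32, 2.64 and 2.38 to 4.54, 4.72 and 4.75. At the outer kinetochore, which binds microtubules, 14 of 16 rose. The motor CENPE rose by 1.89 ± 0.40, and SKA1, whose symbol is on 2 rows and which is uncertain for that reason, by 1.86 ± 0.31. Of the 11 checkpoint genes 10 rose, with the kinases BUB1B at 1.72 ± 0.19 and TTK at 1.52 ± 0.12. MAD1L1, the platform of the checkpoint at the kinetochore, fell by 0.47 ± 0.09, from 5.59, 5.76 and 5.70 to 5.04, 5.25 and 5.36 (limma adjusted p = 0.00448). MIS12 (-0.24 ± 0.06) was the other fall, and without S4, S5, S8 or S9 the count of falls was 1. NUF2 (0.46, limma adjusted p = 0.109) and CENPL (0.23, adjusted p = 0.161) were not called.

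The rises did not extend to every gene of the same families. Of 17 kinesins that carry cargo or have other roles, 2 rose and 4 fell (median -0.05), with KIF26B at 1.03 ± 0.15, KIF9 at -0.65 ± 0.08 and KIF13B at -0.42 ± 0.04. Of 19 subunits and partners of the anaphase-promoting complex, the ubiquitin ligase that ends mitosis, 7 rose and 3 fell (median 0.05). The risen ones included its E2 enzyme UBE2C (1.73 ± 0.09) and its activator CDC20 (1.29 ± 0.12), while the core subunits CDC26 (-0.48 ± 0.05) and ANAPC1 (-0.45 ± 0.08) fell. TOP2A, the DNA topoisomerase of dividing cells (chr17:40388516-40417950, minus strand), was at a log2 CPM of 5.52, 5.47 and 5.69 in S4 to S6 and 7.85, 7.87 and 7.77 in S7 to S9 (2.27 ± 0.09, limma adjusted p = 2.88e-06). Its paralog TOP2B, found in dividing and resting cells, fell by 0.19 ± 0.04 (limma adjusted p = 0.00869). The proliferation marker MKI67, a surfactant of mitotic chromosomes, went from 5.39, 5.72 and 5.80 to 7.41, 7.53 and 7.57 (1.87 ± 0.16). The list these genes belong to holds condensin, cohesin and separase genes, topoisomerases, lamins, HMGB proteins and chromatin modifiers such as DNMT1 and EZH2. Of its 37 members 29 rose and 4 fell (median 0.56), 2 falling without S8 or S9. Of 19 centriole duplication genes 9 rose and 1 fell (median 0.28), with the starting kinase PLK4 at 1.39 ± 0.16. NCAPG of condensin rose by 2.04 ± 0.11 and the separase ESPL1 by 1.94 ± 0.17.

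Many promoters of mitotic genes carry a cell cycle genes homology region (CHR), known as the site where the DREAM and MYBL2-FOXM1 complexes bind, and CCAAT boxes, bound by NF-Y. Promoters of 3 risen genes are printed as examples, as the 250 bases before the transcription start that RefSeq gives on GRCh38.p14, 5′ to 3′ on the gene's strand. They are PLK1 (chr16:23678639-23678888, plus strand), the cyclin CCNB2 (chr15:59104896-59105145, plus strand) and TOP2A (chr17:40417897-40418146, minus strand). Capitals mark every match on either strand to the CHR letters TTTGAA or the CCAAT box CCAAT, so that matches on the other strand read TTCAAA and ATTGG.
PLK1 promoter: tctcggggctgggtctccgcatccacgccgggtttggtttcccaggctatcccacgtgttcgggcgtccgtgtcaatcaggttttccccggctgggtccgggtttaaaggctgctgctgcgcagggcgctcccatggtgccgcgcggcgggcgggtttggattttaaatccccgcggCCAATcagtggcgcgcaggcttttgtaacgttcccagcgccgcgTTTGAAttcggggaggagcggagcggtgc
CCNB2 promoter: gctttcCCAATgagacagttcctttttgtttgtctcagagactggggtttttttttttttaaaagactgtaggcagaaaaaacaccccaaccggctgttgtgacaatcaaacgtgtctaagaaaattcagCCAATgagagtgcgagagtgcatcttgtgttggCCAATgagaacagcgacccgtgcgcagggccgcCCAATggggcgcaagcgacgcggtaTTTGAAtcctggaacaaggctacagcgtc
TOP2A promoter: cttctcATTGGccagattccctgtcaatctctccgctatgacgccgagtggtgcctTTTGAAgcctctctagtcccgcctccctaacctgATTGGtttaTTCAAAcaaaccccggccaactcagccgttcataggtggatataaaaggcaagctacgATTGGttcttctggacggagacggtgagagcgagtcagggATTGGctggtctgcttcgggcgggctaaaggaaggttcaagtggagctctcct
PLK1 holds 2 matches, CCNB2 5 and TOP2A 6. Counts of promoters were made on windows of 300 bases, from 250 before to 50 after the start. They cover the 10311 measured protein-coding genes (mean log2 CPM of at least -1) that have an entry in the RefSeq table. A CHR was found in 9.71% of these windows, in 54.9% of the windows of the mitosis lists (45 of 82), in 11.3% of those of all genes that rose and in 8.59% of those of genes that fell. Among genes that rose by at least 2-fold the share was 22.2%. A CHR with a CCAAT box was in 40.2% of the mitosis windows (33 of 82) against 4.11% of all. These matches are a description of the letters and no measurement of binding, and 15.4% of the windows of the whole RefSeq table hold a CHR and 35.7% a CCAAT box.

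DNA replication genes rose in most cases, by less than mitotic genes. Replication starts where the origin recognition complex, CDC6 and CDT1 load the MCM helicase, which CDC45 and the GINS complex then activate. Of 52 licensing and fork genes 42 rose and 3 fell, with a median log2 fold change of 0.56. Of the 25 licensing genes 19 rose and 3 fell, 1 falling without S4, and of the 27 fork genes 23 rose and 0 fell. CDT1 went from a log2 CPM of 2.75, 2.54 and 2.84 to 3.73, 4.11 and 4.23 (1.31 ± 0.15), with no overlap and with the control cells lowest at 1.22, 1.53 and 1.45. CDC45 rose by 1.34 ± 0.16, MCM10 by 1.23 ± 0.20, ORC1 by 1.12 ± 0.13 and the helicase subunit MCM3 by 0.37 ± 0.04. At the fork the polymerase alpha subunit POLA2 (1.67 ± 0.19), the ligase LIG1 (1.40 ± 0.14) and the primase PRIM1 (1.35 ± 0.11) rose. ORC4 of the origin recognition complex fell by 0.37 ± 0.04 (limma adjusted p = 0.000114).

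Genes for deoxynucleotide supply rose in 9 of 11 cases and fell in 0 (median 0.35). RRM2, the cell-cycle-regulated subunit of ribonucleotide reductase, was at a log2 CPM of 4.50, 4.40 and 4.14 in S4 to S6 and 5.90, 5.87 and 5.78 in S7 to S9 (1.5 ± 0.11). Thymidine kinase TK1 rose by 1.51 ± 0.09 and thymidylate synthase TYMS by 1.01 ± 0.06. Of 38 genes of homologous recombination and crosslink repair 25 rose and 0 fell (median 0.57), among them the helicase BRIP1 (1.72 ± 0.14), RAD51AP1 (1.47 ± 0.28), the nuclease EXO1 (1.37 ± 0.25) and BRCA1 (1.09 ± 0.10). Of 21 measured genes on a list of histones with SLBP and NPAT, which serve histone RNA production, 5 rose and 0 fell (median 0.08), with H2AX, the variant marked at DNA breaks, at 0.52 ± 0.07.

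The regulators of G1 phase did not move together. Of 19 G1 cyclins, kinases and E2F and RB family genes 10 rose and 2 fell (median 0.30), and 1 fell without S5 or S6. E2F1, which switches on replication genes, was at a log2 CPM of 5.18, 5.25 and 5.13 in S4 to S6 and 5.74, 5.81 and 5.92 in S7 to S9 (0.64 ± 0.05), and the repressor E2F8 rose by 1.82 ± 0.29. CDK4, the kinase that with cyclin D inactivates RB, went the other way, from 7.0, 7.03 and 6.96 to 6.31, 6.29 and 6.41 (-0.66 ± 0.04, limma adjusted p = 2.14e-05). The siRNA libraries were the lowest of the 9 for CDK4, since the control cells were at 7.05, 7.01 and 6.95. Its partner CCND1 rose by 0.45 ± 0.05. Of the CDK inhibitors, CDKN1A (p21) fell by 0.49 ± 0.06, from 8.01, 8.08 and 7.97 to 7.54, 7.56 and 7.50, and CDKN2C (p18) rose by 1.28 ± 0.08.

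Promoters of replication genes are known for E2F sites. CDT1 (chr16:88803539-88803788, plus strand) and E2F1 (chr20:33686386-33686635, minus strand) are printed as examples in the same way, with capitals marking the match to 1 of 3 written forms of the site, TTTGGCGC, TTTCCCGC or TTTCGCGC, on either strand.
CDT1 promoter: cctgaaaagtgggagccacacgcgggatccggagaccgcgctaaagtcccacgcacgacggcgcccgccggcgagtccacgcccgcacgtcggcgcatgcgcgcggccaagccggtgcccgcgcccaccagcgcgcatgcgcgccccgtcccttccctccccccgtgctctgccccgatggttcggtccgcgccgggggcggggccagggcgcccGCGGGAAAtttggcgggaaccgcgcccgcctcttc
E2F1 promoter: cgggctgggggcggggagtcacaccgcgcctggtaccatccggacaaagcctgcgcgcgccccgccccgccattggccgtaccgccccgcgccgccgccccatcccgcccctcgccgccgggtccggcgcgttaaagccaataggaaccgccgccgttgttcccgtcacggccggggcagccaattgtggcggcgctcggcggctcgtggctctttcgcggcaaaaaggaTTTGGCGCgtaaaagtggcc
Each holds 1 match, which begins 35 bases before the start in CDT1 and 20 in E2F1. Any of the 3 forms was in 4.65% of the 10311 windows, in 42.2% of those of the replication lists (19 of 45), in 8.54% of those of the mitosis lists, and in 5.0% of genes that rose and 4.75% of genes that fell. The 2 lists thus differed in the letters of their promoters, since a CHR was in 2.22% of the replication windows. Among all genes that rose, the shares of both motifs were close to those among all 10311.

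**Figure D3:**
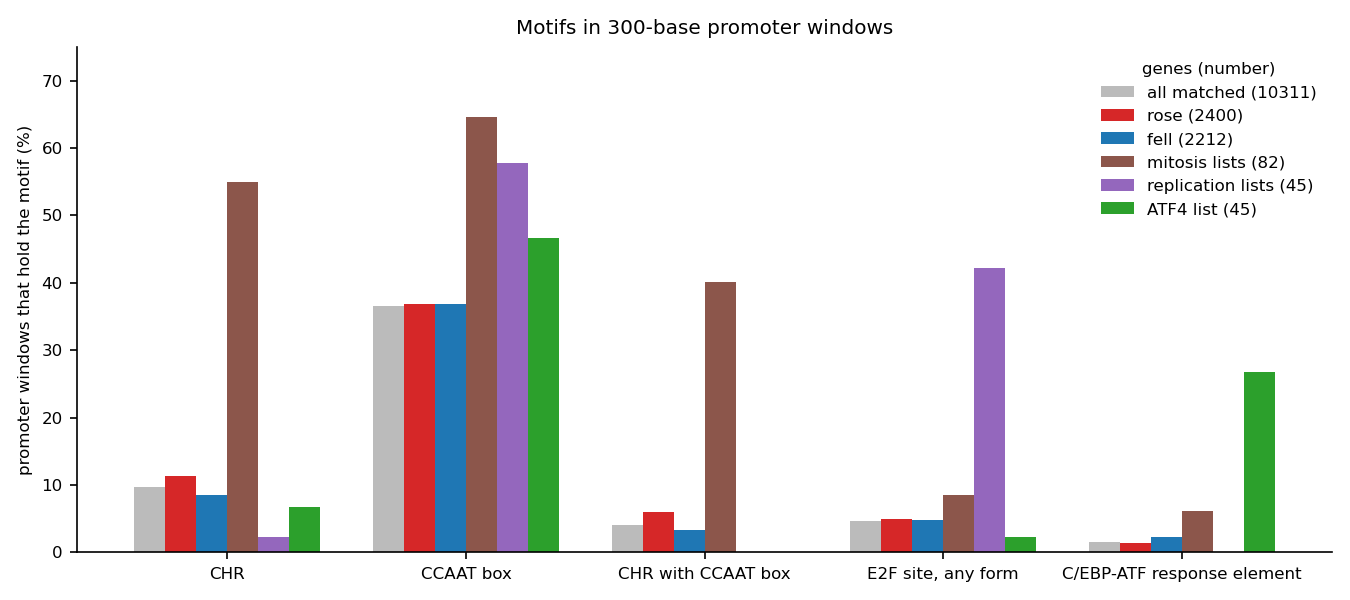
Share of promoter windows of 300 bases that hold each motif (vertical axis, percent), by motif and by group of genes; the number of windows is in the key. The mitosis lists stand out for the CHR, alone or with a CCAAT box, the replication lists for the E2F site and the ATF4 list for the C/EBP-ATF response element, while all risen and all fallen genes lie close to all 10311 matched genes.

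**Figure D4:**
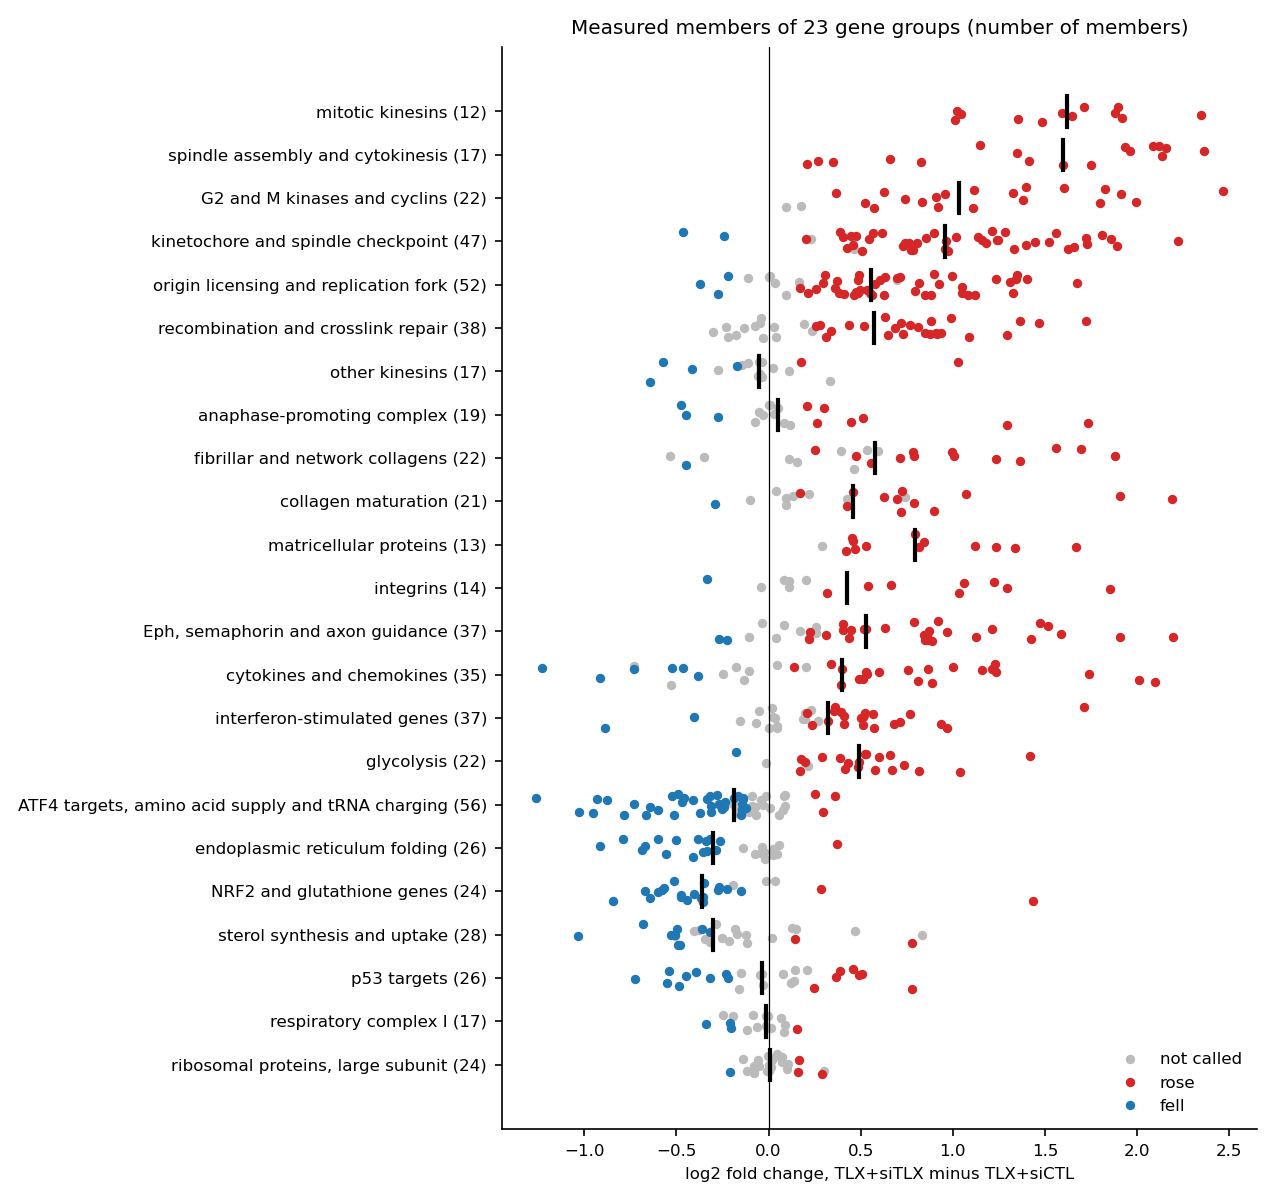
Log2 fold change, TLX+siTLX minus TLX+siCTL, of every measured member of 23 gene groups; red members rose, blue members fell, grey members were not called, and the black bar is the median. The mitotic groups lie to the right, the amino acid, folding and NRF2 groups to the left of 0, and respiratory complex I and the ribosomal proteins close to 0.

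Genes of the extracellular matrix rose as a further large group. Collagens are trimers that are modified in the endoplasmic reticulum, secreted and crosslinked by lysyl oxidases. Of 22 measured collagens 13 rose and 1 fell (median log2 fold change 0.58), and 0 fell without S4, S5, S8 or S9. COL5A1, which regulates the width of collagen fibrils (chr9:134641774-134844843, plus strand), was at a log2 CPM of 6.81, 6.75 and 6.96 in S4 to S6 and 8.64, 8.71 and 8.80 in S7 to S9 (1.88 ± 0.06, limma adjusted p = 2.88e-06). COL4A1, a chain of basement membrane collagen, was at 5.80, 5.75 and 5.84 against 7.53, 7.49 and 7.45 (1.69 ± 0.05). In both genes the siRNA libraries lay above the control cells too, at 7.60, 7.63 and 7.68 for COL5A1 and 6.60, 6.60 and 6.75 for COL4A1. COL4A2, which shares a promoter region with COL4A1, rose by 1.24 ± 0.07, and the chains of collagen I, COL1A1 (1.37 ± 0.22) and COL1A2 (1.56 ± 0.32), rose with a larger error. Of 8 matched fibroblast and adipocyte markers 4 were measured and 3 rose, COL1A1, COL1A2 and PDGFRB, while DCN, PDGFRA, ADIPOQ and LEP were under the level of measurement. Their summed CPM was 7.72 to 8.35 in S4 to S6, 12.6 to 16.0 in S7 to S9 and 12 to 12.9 in the control cells, and their part in the result was not tested.

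Of 21 genes that modify and crosslink collagen 12 rose and 1 fell (median 0.46). The lysyl oxidase LOXL4 went from a log2 CPM of 4.56, 4.43 and 4.63 to 6.58, 6.69 and 6.92 (2.19 ± 0.09), with the control cells at 4.91, 4.96 and 5.04. The procollagen protease ADAMTS14 rose by 1.91 ± 0.17 and LOXL2 by 1.07 ± 0.04, while the lysyl hydroxylase PLOD3 fell by 0.29 ± 0.04. Matricellular proteins sit in the matrix and signal to cells. Of 13 measured genes for these and for other matrix proteins, such as FN1, FBN1 and LTBP1, 12 rose and 0 fell (median 0.79). TGFBI, an integrin ligand induced by TGF-beta, went from 4.64, 4.59 and 4.62 to 6.14, 6.30 and 6.41 (1.67 ± 0.06). EFEMP1 rose by 1.34 ± 0.05 and tenascin TNC by 1.23 ± 0.08. Fibronectin, FN1, was at 7.83, 7.71 and 7.74 in S4 to S6 and at 8.79, 8.97 and 8.88 in S7 to S9 (1.12 ± 0.06). Here the siRNA libraries lay below the control cells, at 9.84, 9.75 and 9.76. Of 12 laminins and other basement membrane genes 7 rose, with LAMA5 at 0.96 ± 0.11, and 2 fell, with LAMA1 at -0.92 ± 0.16, 1 falling without S4, S5 or S7.

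Integrins, the receptors for this matrix, rose in 8 of 14 cases and fell in 1 (median 0.43). ITGB8, which activates latent TGF-beta, rose by 1.85 ± 0.13, the vitronectin receptor chain ITGB3 by 1.29 ± 0.05 and the laminin receptor chain ITGB4 by 1.22 ± 0.12. The collagen receptor chain ITGA2 fell by 0.33 ± 0.06. Proteases that cut the matrix did not move as a group, with 9 of 20 rising and 6 falling (median 0.13). MMP24, a membrane-bound metalloproteinase, rose by 1.80 ± 0.16, the membrane inhibitor RECK by 1.14 ± 0.08, MMP19 by 0.90 ± 0.14, and the plasminogen activators PLAT and PLAU by 1.07 ± 0.05 and 1.05 ± 0.08. The collagenase MMP1 fell, from a log2 CPM of 6.10, 6.18 and 6.05 to 4.27, 4.27 and 4.21 (-1.86 ± 0.08, limma adjusted p = 3.72e-06), which is below the control cells at 5.33, 5.35 and 5.02. SERPINB2, an inhibitor of the urokinase encoded by PLAU, was at 3.20, 3.25 and 3.13 in S4 to S6 and 1.92, 1.96 and 1.69 in S7 to S9 (-1.34 ± 0.17), and at -1.77, -2.11 and -2.39 in the control cells. For SERPINB2 the siRNA libraries therefore lay between the other groups and nearer to TLX+siCTL.

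Epithelial and mesenchymal markers rose side by side, in 12 of 19 and 5 of 8 cases, with 0 falling in either. CDH1 (E-cadherin), the adhesion molecule of epithelia, had few reads throughout, at a log2 CPM of -1.22, -0.94 and -0.84 in S4 to S6 and 1.68, 1.14 and 1.40 in S7 to S9 (2.41 ± 0.27, limma adjusted p = 0.000321), and the control cells at 1.78, 1.65 and 2.65 overlapped with the siRNA libraries. Keratin KRT80 rose by 1.11 ± 0.09. Among mesenchymal genes the cadherins CDH11 (1.62 ± 0.12) and CDH2 (1.08 ± 0.24) and the intermediate filament VIM (0.68 ± 0.06) rose. The protocadherin PCDH7 was among the 15 largest rises (2.18 ± 0.11).

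Guidance molecules, first known from growing axons, rose in 27 of 37 cases and fell in 2 (median 0.53), with 1 fall when any 1 of S1 to S8 was left out. The secreted semaphorin SEMA3A was at a log2 CPM of 0.44, 1.04 and 0.62 in S4 to S6 and 2.96, 2.97 and 2.75 in S7 to S9 (2.19 ± 0.18), above the control cells at 1.86, 1.42 and 1.40. SEMA7A, on 2 rows, rose by 1.91 ± 0.08, the receptor EPHA5 by 1.59 ± 0.23 and the ligand EFNB2 by 0.97 ± 0.04. EFNB1, another ephrin ligand, fell by 0.27 ± 0.05.

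Growth factor pathways of the TGF-beta, Notch, Wnt and YAP systems held members that moved both ways. Of 38 TGF-beta and BMP genes 16 rose and 6 fell, and the falls were 2, 1, 3 and 1 without S5, S6, S8 and S9. The ligand GDF5, of the BMP family, was at a log2 CPM of 1.49, 1.35 and 1.59 in S4 to S6 and 3.69, 3.74 and 3.86 in S7 to S9 (2.29 ± 0.10), far above the control cells at -0.58, -0.51 and -0.58. The activin chains INHBB (1.98 ± 0.18) and INHBA (1.68 ± 0.29) rose. Of 42 Wnt and Notch genes 16 rose and 8 fell. LFNG, a glycosyltransferase that tunes Notch receptors, rose by 2.06 ± 0.12, and the Notch target HEY1 fell by 1.05 ± 0.19. TEAD1, the DNA-binding partner of YAP, went from 7.86, 8.05 and 8.0 to 6.97, 7.02 and 6.73 (-1.06 ± 0.09, limma adjusted p = 5.13e-05), the lowest 3 values of the 9 libraries. Of 30 YAP and TEAD target genes 16 rose, with tissue factor F3 at 1.17 ± 0.07, and 5 fell, 3 without S5 or S6. Of 43 EGFR ligands, immediate early factors and feedback inhibitors of MAPK signalling, 14 fell and 10 rose (median -0.08). The early growth response factor EGR1 fell by 0.85 ± 0.14, PHLDA1 by 0.75 ± 0.05, and the AP-1 subunit FOSL2 rose by 0.89 ± 0.05.

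Cytokines and chemokines rose in 21 of 35 cases and fell in 6 (median 0.40). TNFSF10 (TRAIL), a ligand of death receptors, went from a log2 CPM of 4.67, 4.42 and 4.77 to 6.54, 6.57 and 6.78 (2.01 ± 0.11), with the control cells at 4.43, 4.47 and 4.70. The chemokines CCL5, on 2 rows, and CCL26 rose by 2.09 ± 0.36 and 1.74 ± 0.29. IL24 fell by 1.23 ± 0.08, the neutrophil chemokine CXCL2 by 0.91 ± 0.07 and IL1A by 0.73 ± 0.10, while IL6 rose by 0.49 ± 0.09. Of 37 interferon-stimulated genes 20 rose and 2 fell (median 0.32), and 1 fell without S4 or S5. The RNA-sensing synthetases OAS1 and OAS3 rose by 1.71 ± 0.12 and 0.94 ± 0.05, and the ubiquitin-like ISG15 by 0.77 ± 0.03, while IFI44L fell by 0.89 ± 0.14. In a fit of the 6 TLX-overexpressing libraries alone 12 of these 37 rose. Of 14 sensors of double-stranded RNA and interferon genes 3 rose and 3 fell, 1 rising without S5. In antigen presentation 8 of 20 rose and 0 fell, with the class II transactivator CIITA at 1.29 ± 0.23 and the invariant chain CD74 at 1.35 ± 0.06. Of 9 matched immune and endothelial markers 4 were measured and 1 rose, CD68, while PTPRC, CD3E, LYZ, VWF and CDH5 were under the level of measurement. Their summed CPM was 53.3 to 54.4 in S4 to S6 and 85.8 to 96.6 in S7 to S9, against 82 to 84.2 in the control cells, and their part in these rises was not tested.

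The prostaglandin enzymes PTGS2 and HPGD moved in opposite directions. PTGS2 (COX-2), the inducible cyclooxygenase (chr1:186671791-186680427, minus strand), was at a log2 CPM of 7.23, 7.26 and 6.91 in S4 to S6 and 5.38, 5.26 and 4.63 in S7 to S9 (-2.05 ± 0.18, limma adjusted p = 9.19e-05). Its level in the control cells was 9.99, 9.93 and 9.77, so each group lay below the one before. HPGD, which inactivates prostaglandins, went from 0.63, 0.37 and 0.06 to 2.51, 2.34 and 1.98 (1.92 ± 0.18), a range that overlaps the control cells at 2.38, 2.18 and 2.46. The constitutive cyclooxygenase PTGS1 rose by 1.05 ± 0.20. In S9, both PTGS2 and HPGD were the lowest of the siRNA libraries.

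Of 22 glycolysis genes 19 rose and 1 fell (median 0.49), and of 21 hypoxia response genes 14 rose and 1 fell (median 0.27). Lactate dehydrogenase LDHA, on 2 rows, was at a log2 CPM of 8.35, 8.24 and 8.31 in S4 to S6 and 9.35, 9.25 and 9.41 in S7 to S9 (1.04 ± 0.06), with the control cells at 7.92, 7.95 and 8.08. The aldolase ALDOC rose by 1.42 ± 0.15, the oxygen-sensing hydroxylase EGLN3 by 1.70 ± 0.14 and PDK1, which holds pyruvate out of the citric acid cycle, by 0.81 ± 0.11. Hexokinase HK1 fell by 0.18 ± 0.03 and the lipoprotein lipase inhibitor ANGPTL4 by 0.48 ± 0.07. Genes of the respiratory chain stayed near or below the background, with 1 of 17 complex I genes rising and 3 falling (median -0.02) and 1 of 18 genes of the other complexes rising and 5 falling (median -0.03). Without S4, S5 or S8, 1 complex I gene fell, and without any 1 of S5 to S9, 0 rose. In the citric acid cycle IDH2 rose by 0.99 ± 0.10 and IDH3A fell by 0.97 ± 0.04, and in complex II SDHA rose by 0.39 while SDHB fell by 0.39.

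The falls were smaller and ran through other groups. Among genes taken by the naming rule, which asks for a mean log2 CPM of at least 1, those with the largest log2 fold change were CYP1A1, KLHDC7B and CDKN2AIPNL. KLHDC7B, a kelch-domain gene, was at a log2 CPM of 1.68, 1.93 and 1.58 in S4 to S6 and -0.87, -1.10 and -0.99 in S7 to S9 (-2.72 ± 0.12), with the control cells highest at 4.46, 4.53 and 4.35. CDKN2AIPNL, a partner of the exonuclease XRN2, was at 3.79, 3.72 and 3.61 against 1.64, 1.23 and 1.62 (-2.21 ± 0.11), and here the control cells at 3.60, 3.73 and 3.63 were level with TLX+siCTL. The pantetheinase relative VNN3 fell by 1.99 ± 0.20, TMEM87A by 1.47 ± 0.07, PARM1 by 1.45 ± 0.14, the RNA polymerase III subunit POLR3K by 1.31 ± 0.08 and glutaredoxin GLRX by 1.30 ± 0.06. Among the steadiest falls, relative to their spread, were MTMR12 and STARD3NL. MTMR12, a catalytically inactive partner of phosphoinositide phosphatases (chr5:32226994-32313009, minus strand), was at 6.66, 6.71 and 6.69 in S4 to S6 and 5.35, 5.33 and 5.19 in S7 to S9 (-1.40 ± 0.05, limma adjusted p = 2.88e-06). STARD3NL, which tethers endosomes to the endoplasmic reticulum, was at 5.32, 5.23 and 5.29 against 4.13, 4.11 and 4.12 (-1.16 ± 0.04). In both, and in CDKN2AIPNL, the 6 libraries without the TLX siRNA lay within a narrow band, MTMR12 at 6.34, 6.41 and 6.41 and STARD3NL at 5.14, 5.15 and 5.06 in the control cells. The ubiquitin ligase RNF185 (-1.26 ± 0.05), the GTPase RAB12 (-1.23 ± 0.05), PSEN2 of gamma-secretase (-1.04 ± 0.04), ELMOD2 (-1.12 ± 0.04), TBC1D20 (-0.85 ± 0.04) and the sphingolipid enzyme KDSR (-0.78 ± 0.03) were further steady falls.

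Many of these genes share letters in their 3′ UTR. The sites of 3 of them are printed with 10 bases on each side, in DNA letters of the gene's strand from GRCh38, because they hold all 8 letters, given in capitals. The sites are MTMR12 at chr5:32227540-32227567 (minus strand), STARD3NL at chr7:38230315-38230342 (plus strand) and RNF185 at chr22:31204777-31204804 (plus strand).
MTMR12 site: gtgatgctttACACTCTAcaaagtatgg
STARD3NL site: ttcttttttaACACTCTAcatttccctt
RNF185 site: accgctgtaaACACTCTAtaacttcagg
RNF185 was at a log2 CPM of 6.11, 6.14 and 6.13 in S4 to S6 and 4.86, 4.96 and 4.79 in S7 to S9. These were its 3 lowest values of the 9 libraries.

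The letters came out of a search of 3′ UTRs made after the changes were known, and it is given as a description without a test. For 11437 protein-coding genes averaging a log2 CPM of at least 1, the mean log2 fold change of genes with and without each of 16144 runs of 7 letters was compared, and the runs were ordered by the size of the difference weighted by the number of genes. The lowest was ACACTCT, held by 917 genes, with a mean difference of -0.18, followed by CACTCTA (728 genes, -0.13), which overlaps it by 6 letters, and CACTCTT (1302 genes, -0.09). The highest was CCCTCCC (2650 genes, 0.06). Coding sequences were searched in the same way, with CCTGGAC highest (3308 genes, 0.09) and CCATATA lowest (502 genes, -0.12). The weighted differences were -12.8 for ACACTCT and 6.5 for CCCTCCC in 3′ UTRs. In coding sequences they were 10.2 for CCTGGAC and -6.2 for CCATATA. For ACACTCT in 3′ UTRs the mean difference between TLX+siCTL and CTL+siCTL, which shares the TLX+siCTL libraries, was 0.01.

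Genes were then sorted by how much of ACACTCTA their 3′ UTR holds. The letters were chosen from these same fold changes, so more falls among genes that hold them follow from the choice. Of 172 genes with all 8 letters 47.7% fell and 15.7% rose, with a median log2 fold change of -0.20. Of 745 with the first 7 letters but not all 8, 37.2% fell and 14.4% rose (median -0.12), and of 481 with the last 7 alone 32.2% fell and 23.5% rose (median -0.07). Of 2162 with the shared 6 letters 23.9% fell and 23.6% rose, and of 7877 with none 19.5% fell and 26.1% rose (median 0.02). Over all 11437 genes, 22.5% fell and 24.6% rose. The 3′ UTRs that hold 8 letters were longer, with a median of 3452 bases against 685 in genes with none. Within the shortest, middle and longest of 3 equal groups by 3′ UTR length, genes with all 8 or the first 7 letters fell in 59.6% (31 of 52), 47.6% and 34.9% of cases, against 18.8%, 19.7% and 20.9% of genes with none. Whether 3′ UTR length had a part in these falls was not tested. Of 115 genes with the 8 letters in the coding sequence and no 3′ UTR match, 33.0% fell (median -0.08).

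The same difference is given by library as a description. The letters were chosen from the difference between S7 to S9 and S4 to S6, so a gap between these libraries follows from the choice. Deviations were taken from the mean of S1 to S3, so these libraries lie near 0 by construction. Relative to genes without the letters, the median deviation from the CTL+siCTL mean of genes with all 8 was -0.25, -0.25 and -0.30 on the log2 scale in S7, S8 and S9. In S1 to S6 this difference lay between -0.05 and 0.01. All 3 siRNA libraries were below the other 6, and S9 was the lowest.

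**Figure D5:**
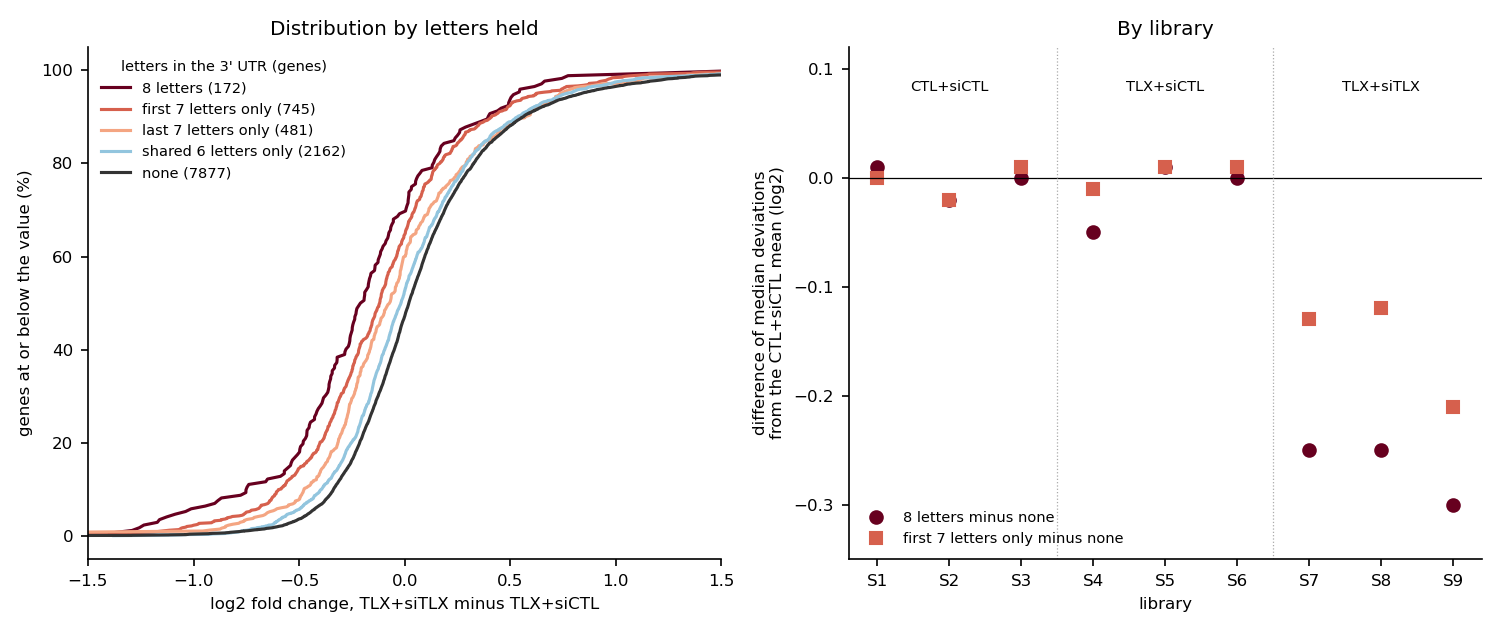
Left, cumulative share of genes (vertical axis, percent) at or below each log2 fold change, TLX+siTLX minus TLX+siCTL (horizontal axis), by the letters of ACACTCTA that the 3′ UTR holds. Right, for each library, the median deviation from the CTL+siCTL mean of genes with 8 letters (circles) or the first 7 alone (squares) minus that of genes with none; S1 to S6 lie near 0 and S7 to S9 between -0.12 and -0.30.

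Of the genes that fell by at least 2-fold, 46.9% (30 of 64) hold 8 letters or either run of 7, as do 514 of all 2569 that fell, 8.79% of those that rose and 12.2% of all 11437. These shares, too, rest on the fold changes from which the letters were chosen. CDC26 and ANAPC1, 2 of the 3 falls of the anaphase-promoting complex, hold them as well. In that list 4 of 19 members hold them. Further falls described in this text that hold them include ORC4, TEAD1, PHLDA1, CXCL2, IL1A, IFI44L and IDH3A. Among the named genes, 8 of the 10 steadiest falls and 6 of the 15 largest falls hold them, the latter being CYP1A1, CDKN2AIPNL, TMEM87A, MTMR12, POLR3K and GLRX. Of the 10 steadiest rises 2 do, COL5A1 and PEG10. The coding sequence of NR2E1 also holds the 8 letters, once, at chr6:108180389-108180416 on the plus strand, as do 156 of the 11437 coding sequences (1.36%).
NR2E1 site: gttgatgctaACACTCTActggctgtat
Whether either siRNA strand carries the complement of these letters was not tested, since the sources used here hold no siRNA sequence.

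Genes of amino acid supply and the stress responses fell in large numbers. ATF4 is a transcription factor made when the kinases of the integrated stress response slow translation, and it switches on amino acid synthesis, import and tRNA charging. Of 56 genes on this list 36 fell and 3 rose, with a median log2 fold change of -0.19. By subgroup, 13 of 19 amino acid genes fell (median -0.34), 12 of 17 stress factors (median -0.32) and 11 of 20 tRNA synthetases (median -0.14). With a fit that lets the error not follow the level, 23 of the 56 fell, 3 of them synthetases. DDIT3 (CHOP), a factor of the late stress response, was at a log2 CPM of 6.39, 6.55 and 6.40 in S4 to S6 and 5.16, 5.17 and 5.23 in S7 to S9 (-1.26 ± 0.07, limma adjusted p = 1.06e-05). TRIB3, a pseudokinase induced by ATF4, was at 8.19, 8.22 and 8.16 against 7.06, 7.17 and 7.27 (-1.03 ± 0.06). For both, the control cells were highest, at 7.87, 7.87 and 7.62 for DDIT3 and 9.25, 9.23 and 9.06 for TRIB3. ATF4 itself fell by 0.28 ± 0.05, from 8.66, 8.64 and 8.70 to 8.32, 8.37 and 8.47.

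Among amino acid genes the serine synthesis enzyme PHGDH fell by 0.93 ± 0.13, the transporter chain SLC3A2 by 0.78 ± 0.05, SLC38A2 by 0.73 ± 0.08 and the cystine importer SLC7A11 by 0.65 ± 0.12. Asparagine synthetase ASNS went from a log2 CPM of 8.13, 7.97 and 8.08 to 7.67, 7.59 and 7.80 (-0.37 ± 0.07, limma adjusted p = 0.00393), and the control cells lay lowest at 7.12, 7.12 and 6.99. The 3 rises on the list were the mTOR inhibitor DDIT4 (0.36 ± 0.07), the AP-1 repressor JDP2 (0.29 ± 0.06) and the synthetase subunit FARSB (0.25 ± 0.04). ASNS is printed as the best known promoter with a C/EBP-ATF response element (chr7:97872409-97872658, minus strand, 250 bases before the RefSeq start on GRCh38.p14), with the letters TGATGNAAN in capitals.
ASNS promoter: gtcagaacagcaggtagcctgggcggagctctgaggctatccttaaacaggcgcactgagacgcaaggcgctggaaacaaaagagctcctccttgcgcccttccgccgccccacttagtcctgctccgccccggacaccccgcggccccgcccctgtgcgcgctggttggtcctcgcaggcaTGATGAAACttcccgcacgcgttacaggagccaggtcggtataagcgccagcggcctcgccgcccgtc
The element was in 26.7% of the windows of the ATF4 list (12 of 45), against 1.61% of the 10311 windows, 2.31% of those of genes that fell, 1.46% of those of genes that rose and 3.67% of the whole RefSeq table. Of the 54 list members with a 3′ UTR in the search, 6 hold the 8 letters or a run of 7 described above, among them 5 of the 35 falls. Of the 48 without them 30 fell. Whether the letters had a part in the falls on this list was not tested.

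Chaperones of the endoplasmic reticulum, which fold secreted proteins, fell in 15 of 26 cases and rose in 1 (median -0.30). The main chaperone HSPA5 (BiP) was at a log2 CPM of 11.21, 11.30 and 11.26 in S4 to S6 and 10.83, 10.72 and 10.71 in S7 to S9 (-0.50 ± 0.07), with the control cells highest at 12.23, 12.21 and 12.03. Its partner DNAJB9 fell by 0.92 ± 0.07 and SDF2L1 by 0.79 ± 0.08, and the lectin chaperone CALR rose by 0.37 ± 0.04. In the cytosol, 14 of 41 heat shock and proteasome genes fell and 5 rose (median -0.06), and 8 or 9 fell without S4, S5, S6 or S8.

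NRF2, encoded by NFE2L2, is the factor that switches on glutathione and antioxidant genes. Of 24 of these genes 19 fell and 2 rose (median -0.36). GCLM, a subunit of the enzyme that starts glutathione synthesis, was at a log2 CPM of 7.85, 7.98 and 7.95 in S4 to S6 and 7.24, 7.01 and 7.0 in S7 to S9 (-0.84 ± 0.07, limma adjusted p = 5.71e-05), and the control cells at 7.93, 7.82 and 7.84 overlapped with TLX+siCTL. Sulfiredoxin SRXN1 fell by 0.67 ± 0.05, heme oxygenase HMOX1 by 0.58 ± 0.07, NQO1 by 0.48 ± 0.04 and NFE2L2 itself by 0.36 ± 0.06. The reductase AKR1B10 (1.44 ± 0.19) and the lipid peroxidase GPX4 (0.29 ± 0.05) rose. None of the 24 genes, and so none of the 19 falls, holds 8 or 7 of the 3′ UTR letters.

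The aryl hydrocarbon receptor, AHR, induces enzymes that oxidise foreign aromatic compounds. CYP1A1, its best known target (chr15:74719542-74725610, minus strand), was at a log2 CPM of 3.85, 4.02 and 3.62 in S4 to S6 and 1.12, 0.83 and 0.99 in S7 to S9 (-2.85 ± 0.12, limma adjusted p = 3.34e-06), the largest fall by the naming rule. The control cells at 4.25, 4.15 and 4.03 were close to TLX+siCTL. CYP1B1 fell by 1.12 ± 0.12 and the AHR-induced TIPARP by 0.82 ± 0.11, while the aldehyde dehydrogenase ALDH3A1 rose by 1.75 ± 0.13. In all, 4 of 9 genes of this list fell and 1 rose, and 3 of the 4 falls, AHR, CYP1A1 and TIPARP, hold the 3′ UTR letters. Of the 7 list members with a 3′ UTR in the search, 3 hold them.

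Of 28 sterol genes 9 fell and 2 rose (median -0.30), but this count rested on single libraries. It was 5 without S1, S2 or S3 and 2 without S4 or S5, and the rises were 1 when any 1 of S1 to S8 was left out. STARD4, a cholesterol carrier that holds the 3′ UTR letters, fell by 1.03 ± 0.12, and SREBF1, which drives fatty acid genes, rose by 0.78 ± 0.15. Of 27 lysosome and autophagy genes 11 fell and 7 rose, 4 rising without S4, with the autophagosome protein MAP1LC3B at -0.77 ± 0.07 and the protease CTSD at 0.55 ± 0.08.

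Several other groups held both rises and falls, with medians near 0 except for the clock genes. Of 24 NF-kB pathway genes 7 rose and 4 fell (median 0.09), with the precursor NFKB2 at 0.28 ± 0.07. Of 23 ribosome assembly and polymerase I genes 5 rose and 7 fell (median -0.06), with RRP9 at -0.68 ± 0.07. Of 17 clock genes 6 rose and 4 fell (median 0.19), 3 rising without S5 or S8, with the repressor NR1D2 at -0.47 ± 0.08. Of 26 p53 target genes 7 rose and 9 fell (median -0.03), with the death receptor FAS at 0.78 ± 0.13 and BBC3 (PUMA) at -0.72 ± 0.07. Without S5 these counts were 4 and 5, and without S6 4 rose. Of 33 apoptosis genes 9 rose and 11 fell (median -0.04), with the killer protein BIK at 1.57 ± 0.18 and the caspase CASP6 at -0.58 ± 0.06. The falls were 5 to 7 without S2, S3, S4, S5, S6 or S8, and 5 of the 11, CASP6 included, hold the 3′ UTR letters. Of the 30 list members with a 3′ UTR in the search, 9 hold them. Ribosomal proteins moved little, with 3 of 24 large subunit genes rising and 1 falling (median 0.01) and 1 of 20 small subunit genes rising and 1 falling (median -0.05). Without S5 or S6, 1 large subunit gene rose.

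Of 15 genes of the RNA interference machinery, through which the siRNAs act, 1 rose and 4 fell (median -0.02), and 0 rose without S4, S5, S7 or S8. The 3′ UTR letters are held by 6 of the 15, among them 3 of the 4 falls, TNRC6B, AGO4 and TSN. Of the 9 without them 1 fell and 1 rose, and the part of the letters was not tested. AGO1, an Argonaute, was at a log2 CPM of 5.41, 5.47 and 5.48 in S4 to S6 and 4.87, 4.95 and 4.75 in S7 to S9 (-0.60 ± 0.06, limma adjusted p = 0.000138), its lowest 3 values of the 9. AGO2, the Argonaute that cuts, was not called (-0.35, adjusted p = 0.153), and its groups overlapped.

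Genes reported elsewhere as bound or repressed by TLX moved in both directions. Of 10 measured, 5 rose and 2 fell (median 0.19). BMP4 rose by 0.61 ± 0.08, while CDKN1A fell, as given above, and SIRT1 fell by 0.28 ± 0.05. Of 9 corepressor partners of TLX 3 rose and 1 fell, with LSD1 (KDM1A) at 0.21 ± 0.03 and HDAC5 at -0.40 ± 0.08. The half-site AAGTCA was in 6.88% of the promoter windows of genes that rose, 8.63% of those of genes that fell, 7.72% of the 10311 and 12.5% of the whole RefSeq table. Of 29 nuclear receptors 9 rose and 5 fell, 3 without S6. The thyroid hormone receptor THRB rose by 1.27 ± 0.16 and NR2F1 (COUP-TF I) by 0.48 ± 0.10, while ESRRA fell by 0.45.

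Genes that rose and genes that fell differed in base composition and level. Among genes matched to GENCODE 29, the median GC content of the transcript was 50.5% for rises, 46.1% for falls and 48.1% for all measured genes, and the median level was a log2 CPM of 4.72, 5.41 and 4.60. Median transcript lengths were 3725, 3730 and 3660 bases. Protein-coding genes made up 98.5% of the rises, 96.8% of the falls and 96.0% of all. Whether base composition or level contributed to the calls was not tested.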

How the data were processed

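RNA was sequenced in 9 libraries of 3 groups. The submitters' processing notes name kallisto 0.44.0, the packages limma and edgeR, and the build GRCh38, without saying which step each served. The authors deposited log2 CPM values, which are counts scaled to library size on a log2 scale, and a second table with a signed ratio, an unadjusted p-value and a q-value per gene from a test that the sources used here do not name. The lowest log2 CPM was -5.33 in every library, which is what a count of 0 gives with a prior count of 2, so the change of a gene with few reads is understated. Of low values, 42.5% to 44.34% were whole reads within 0.01, so no count test was run. Column headers name the group but no replicate of the labels, and libraries are called S1 to S9 by the headers' running numbers.

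limma 3.58.1 in R 4.3.3 was fitted to the deposited log2 CPM of the 9 libraries, with 1 mean for each group and an intensity trend, and the difference TLX+siTLX minus TLX+siCTL was tested two-sided with Benjamini-Hochberg adjustment over 27548 rows and a threshold of 0.05. An exact permutation test of 3 against 3 cannot go below 0.1 and was not used. In simulated data for this comparison with 27548 rows and 50 genes changed per fold size, 26% of 1.2-fold, 80% of 1.5-fold, 100% of 2-fold and 98% of 4-fold changes were recovered, and 1.94% of calls were false. Genes were placed with GENCODE 29 by Ensembl identifier, and promoters came from RefSeq (GRCh38.p14). A gene whose symbol is on more than 1 row can have reads split between rows and is uncertain.

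Named genes are the 15 largest and 10 steadiest rises and falls (adjusted p under 0.05, mean log2 CPM of at least 1, a symbol on 1 row, the primary assembly, no overlap of the 3 and 3 values), up to 3 risen and 3 fallen members of a list with the largest change, members whose role is described, and NR2E1 with the cell type markers. The 45 lists (1546 symbols, 1528 matched) and the genes of interest were chosen with earlier results of these data known, and the 3′ UTR and promoter letters were examined after the changes were known. Alternatives were a fit of 6 libraries, filters on low values, log2(CPM + 1), 2 other scalings, no trend, array weights and leaving out each library. Some items are not reported here.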

Additional observations from a re-analysis of the deposited data

How the results depend on the processing

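Rises and falls numbered 2839 and 2358 in a fit of the 6 TLX-overexpressing libraries alone, 3499 and 3004 on the log2(CPM + 1) scale, 3235 and 3508 with library medians set equal, 3097 and 3667 after quantile normalization, 3067 and 2452 without the intensity trend, and 3724 and 3275 with array weights. With each library left out in turn, rises ranged from 2842 (without S6) to 3333 (without S7) and falls from 2370 (without S5) to 2908 (without S7). NR2E1 ranged from -2.90 to -2.08 in log2 fold change, with limma adjusted p from 0.00425 to 0.0287, and could not be tested where rows with a mean log2 CPM under -1 were left out. Of 860 called genes on the lists or named, 711 kept their call in the fit of 6 libraries, 805 after quantile normalization and 715 to 806 with a library left out, and 0 were called the opposite way. RND1, among the 15 largest falls (-1.29 ± 0.31, limma adjusted p = 0.0155), lost its call in the fit of 6 libraries (adjusted p = 0.0823) and without S4, S5, S7 or S8 (0.0666, 0.0786, 0.0705 and 0.0744). With 3 libraries per group, 26% of simulated 1.2-fold changes were recovered, and depth was not varied. No paired analysis was possible because the column headers carry running numbers and not the replicate numbers of the labels.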
